A study of Mus musculus with 2 samples.

Results

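TRBV12-1 and TRBV12-2 are the functional mouse TCR β-chain variable genes that together encode Vβ5. They were read here in the clonotype lists of liver CD8αα T cells and CD8αβ T cells. A clonotype, one distinct rearranged receptor sequence, was counted as TRBV12 when its first listed J gene was a TRBJ gene and its first listed V gene was TRBV12-1 or TRBV12-2. This rule kept 52 of the 337 β-chain clonotypes in the CD8αα library (171 of 2995 β-chain reads) and 161 of 915 in the CD8αβ library (304 of 1850 reads). TRBV12-1 accounted for 16 and 84 of these clonotypes, and TRBV12-2 for 36 and 77. The 2 genes were among 24 TRBV genes listed, and no clonotype was listed under the TRBV12-3 pseudogene.

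Both libraries came from TG mice on the C57BL/6 background, labelled as 10 weeks old, in which a dominant-negative TGF-β receptor II is expressed from the mouse CD4 promoter. These mice are studied as a model of autoimmune biliary disease, and liver CD8αα T cells and CD8αβ T cells were sorted from them and sequenced as bulk RNA, with receptor sequences then assembled from the reads. There was 1 library per cell type, so no difference below has a replicate check. Tests between libraries were Fisher's exact tests (two-sided) that compare these 2 libraries, not the cell types. Tests within a library were Fisher's exact or exact binomial tests over its own reads or clonotypes, which are not replicates. The 95% Wilson intervals cover counting error only. Tests and intervals treat each read as independent. The reads carried no molecular identifiers and several can come from 1 clone, so read intervals can be too narrow and read p-values too small. How many mice were pooled into a library is not given in the sources used here, and no library from mice without the transgene is among the samples. The lists hold receptor segments only, so Cd8a and Cd8b1 could not be read. Immunoglobulin rearrangements made up 21.8% of the listed reads in the CD8αα library and 13.7% in the CD8αβ library, and TCR γ-chain rearrangements 7.04% and 0.560%. All shares below are of β-chain reads or clonotypes. The cells that carried the immunoglobulin and γ-chain rearrangements were not identified, and their part in the results was not tested.

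A TCR β chain is built by joining 1 V, 1 D and 1 J segment, and the CDR3 is the loop that spans the joint and contacts peptide. In current nomenclature TRBV12-1 corresponds to Vβ5.2 and TRBV12-2 to Vβ5.1, and flow cytometry usually reads them together with an antibody to Vβ5.1/5.2. Vβ5 is known from the OT-I receptor and from its removal in mice that combine endogenous mammary tumour virus superantigens with the class II molecule I-E, which C57BL/6 mice lack.

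In GRCm38, the build that the submitters' processing notes name as mm10, Trbv12-1 (ENSMUSG00000095574.2) lies at chr6:41113550-41114067 and Trbv12-2 (ENSMUSG00000094525.2) at chr6:41118851-41119364, both on the plus strand and each with 2 exons. The V genes alternate here with the TRBV13 (Vβ8) genes. Trbv13-1 lies between the 2 TRBV12 genes, Trbv13-2 and the pseudogene Trbv12-3 follow, and Trbv13-3 closes the cluster. The second exons of the TRBV12 genes, which hold most of the V region, are both 293 bases long and differ at 32 positions (89.1% identity). Their last 60 bases, the coding end of that exon and the part nearest the CDR3, are printed because they set how well the genes can be told apart. Capitals mark the 4 positions at which they differ.
Trbv12-1, chr6:41114008-41114067, plus strand: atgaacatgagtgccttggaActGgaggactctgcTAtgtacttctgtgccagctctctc
Trbv12-2, chr6:41119305-41119364, plus strand: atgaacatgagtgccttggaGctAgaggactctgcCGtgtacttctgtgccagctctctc
The final 15 bases, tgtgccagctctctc, are the germline start of the CDR3 and were the same in both genes. The nearest difference lay 9 bases before the CDR3. A CDR3 alone therefore does not show which of the genes it came from, and the assignment rests on reads that reach at least 9 bases upstream.

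The assignment was tied in 8 TRBV12 clonotypes. They were 1 of the 16 CD8αα TRBV12-1 clonotypes and 7 of the 84 CD8αβ TRBV12-1 clonotypes, with 9 reads in all. Each listed TRBV12-1 first and TRBV12-2 with the same score, whereas no clonotype listed under TRBV12-2 had a tie. None of the 285 and 754 clonotypes of the other V genes was tied. The tied V alignments scored 80 to 100, at 5 points a matched base, and for 7 of the 8 this left 0 to 8 matched bases before the CDR3, short of the nearest difference. The lowest score among untied TRBV12 clonotypes was 155 in the CD8αα library and 104 in the CD8αβ library. The medians over each gene's clonotypes were 686.5 for TRBV12-1 and 687.4 for TRBV12-2 in the CD8αα library, and 595.9 and 547 in the CD8αβ library. The ties thus all sat on TRBV12-1, the first of the genes in name order, and moved at most 7 clonotypes in either library.

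By reads, both genes held a smaller share of the β-chain repertoire in the CD8αα library. TRBV12-1 had 74 reads, 2.47% (95% interval 1.97 to 3.09), in the CD8αα library and 126 reads, 6.81% (5.75 to 8.05), in the CD8αβ library. TRBV12-2 had 97 reads, 3.24% (2.66 to 3.94), and 178 reads, 9.62% (8.36 to 11.1). The differences, CD8αα minus CD8αβ, were -4.34 percentage points (-5.68 to -3.11, adjusted Fisher p = 3.32e-12) and -6.38 points (-7.92 to -4.94, adjusted p = 4.32e-19), with p-values adjusted by the Benjamini-Hochberg method over the 24 TRBV genes. Together the genes made up 5.71% (4.93 to 6.60) and 16.4% (14.8 to 18.2) of β-chain reads, a difference of -10.7 points (-12.6 to -8.88, Fisher p = 6.12e-33). A lower read share was common among V genes: 12 of the 24 were called lower in the CD8αα library by this test, 50% of those tested, both TRBV12 genes among them.

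By clonotypes the pair did not differ past the threshold. TRBV12 held 15.4% (12 to 19.7) of the CD8αα clonotypes and 17.6% (15.3 to 20.2) of the CD8αβ clonotypes, a difference of -2.17 points (-6.50 to 2.68, Fisher p = 0.397). TRBV12-1 contributed 4.75% (2.94 to 7.57) and 9.18% (7.48 to 11.2), a difference of -4.43 points (-7.16 to -1.13) with an unadjusted Fisher p of 0.00952 that did not pass after adjustment (0.114). TRBV12-2 contributed 10.7% (7.82 to 14.4) and 8.42% (6.79 to 10.4), a difference of 2.27 points (-1.22 to 6.36, adjusted Fisher's exact p = 0.592). No TRBV gene was called lower by clonotypes (0% of the 24 tested), and TRBV12-1 was the 1 gene lower at an unadjusted p under 0.05. The bars of read and clonotype shares set these values side by side.

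**Figure D1:**
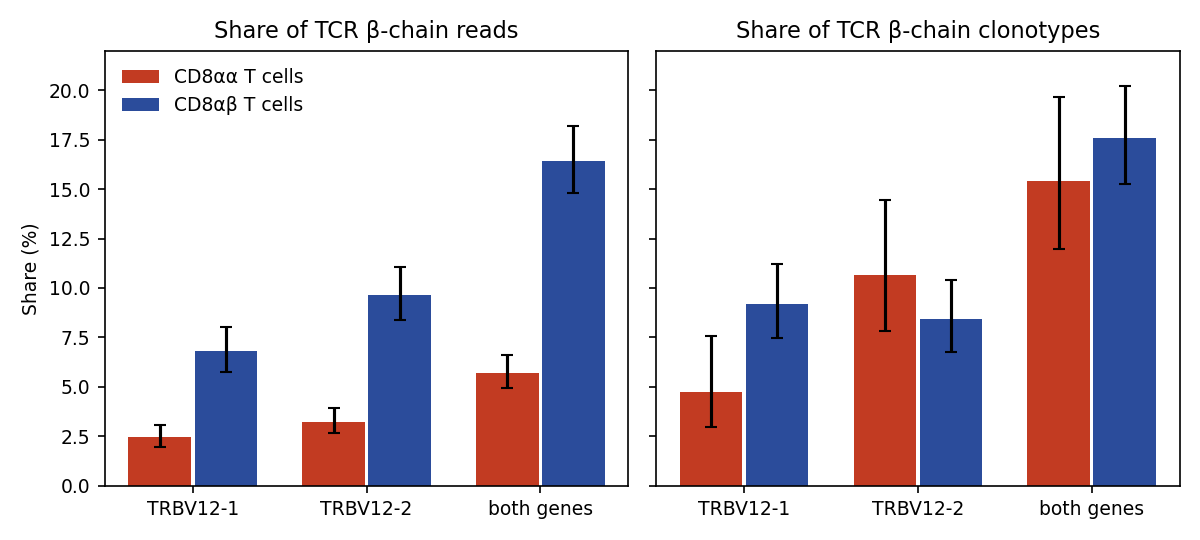
Share (%) of TCR β-chain reads (left) and clonotypes (right) assigned to TRBV12-1, TRBV12-2 and both genes, with bars for the CD8αα library (red) and the CD8αβ library (blue) and error bars for 95% Wilson intervals, which cover counting error only. The read shares of both genes together were 5.71% and 16.4% with separate intervals, whereas the clonotype shares, 15.4% and 17.6%, had overlapping intervals.

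The position of the genes in the repertoire moved accordingly. In the CD8αβ library TRBV12-2 was 2nd of the 24 genes by reads, below TRBV16 at 10.9%, and TRBV12-1 was 5th, between TRBV4 at 7.51% and TRBV13-2 at 6.65%, neighbours whose intervals its own overlapped. In the CD8αα library TRBV12-2 was 12th and TRBV12-1 14th, far below TRBV16 at 30.1% and TRBV5 at 10.7%. By clonotypes TRBV12-2 was 2nd in the CD8αα library and 3rd in the CD8αβ library, and TRBV12-1 was 11th and 2nd.

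Among the 19 genes with a mean read share of at least 1% over both libraries, TRBV12-2 and TRBV12-1 had the 3rd and 4th lowest ratios of CD8αα to CD8αβ read share. The log2 ratio was -1.57 for TRBV12-2 and -1.46 for TRBV12-1, that is a CD8αβ share 2.97-fold and 2.76-fold the CD8αα share. Lower ratios were those of TRBV31, at -3.43 with 0.200% and 2.16% of reads, and TRBV2, at -1.85 with 0.434% and 1.57%. Besides each other, the gene nearest to TRBV12-2 was TRBV2 and the gene nearest to TRBV12-1 was TRBV15 at -1.09, with TRBV19 next above at -0.88. Among the 17 genes with at least 1% in each library, a choice that drops TRBV31 and TRBV2 for their low CD8αα share, both TRBV12 genes had TRBV15 and TRBV19 as their nearest. The neighbouring TRBV13 genes lay closer to 0. TRBV13-1 held 4.34% and 5.46% of reads (adjusted Fisher p = 0.110), TRBV13-2 7.05% and 6.65% (adjusted p = 0.710), and TRBV13-3 4.54% and 6.11% (adjusted p = 0.0325). Some TRBV13 pairs with few clonotypes held many CD8αα reads. TRBV13-2-TRBJ1-4 had 111 CD8αα and 2 CD8αβ reads in 3 and 2 clonotypes. TRBV13-3-TRBJ1-3 had 70 and 2 reads in 3 and 1 clonotypes. Most other TRBV13 pairs had a lower read share in the CD8αα library. What such pairs add to the read contrast between the families was not tested. Of the reads assigned to either family, TRBV12 took 26.4% (23.1 to 29.9) among CD8αα reads and 47.4% (43.6 to 51.3) among CD8αβ reads, a difference of -21.0 points (-26.1 to -15.8, Fisher p = 4.79e-15). Of the clonotypes of both families it took 43.3% and 47.1%, a difference of -3.74 points (-13.8 to 6.61, Fisher p = 0.524).

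**Figure D2:**
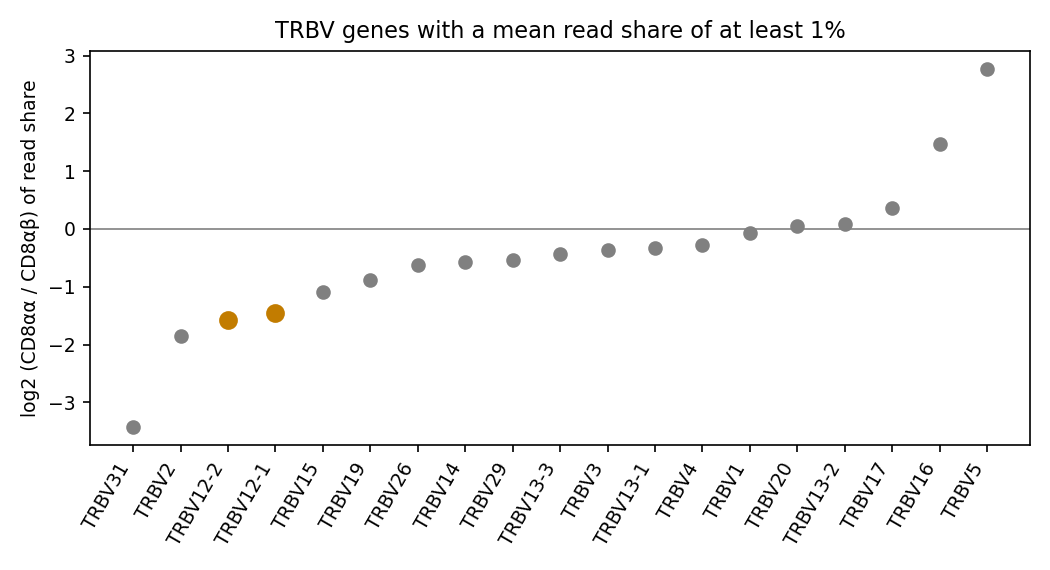
log2 ratio of the CD8αα read share to the CD8αβ read share for the 19 TRBV genes with a mean of at least 1% of β-chain reads over both libraries, ordered from lowest to highest, with TRBV12-2 and TRBV12-1 in orange and a line at 0 (equal shares). The TRBV12 genes lie 3rd and 4th from the lowest, at -1.57 and -1.46, above TRBV31 and TRBV2, and TRBV16 and TRBV5 lie highest.

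The balance between the 2 genes depended on the unit counted. By reads TRBV12-2 made up 56.7% of TRBV12 in the CD8αα library and 58.6% in the CD8αβ library, a difference of -1.83 points (-11.1 to 7.30, Fisher p = 0.700), which turned to 10.7 points when the largest clonotype of each gene was left out (Fisher p = 0.0611). By clonotypes it made up 69.2% (55.7 to 80.1) and 47.8% (40.3 to 55.5), a difference of 21.4 points (5.87 to 34.6, Fisher p = 0.0102). This clonotype difference rested on clonotypes with a single read. With at least 2 reads required, 13 TRBV12-1 and 22 TRBV12-2 clonotypes remained in the CD8αα library and 25 and 35 in the CD8αβ library, and the difference fell to 4.52 points (Fisher p = 0.828). Under the same requirement the balance by reads was -13.1 points (Fisher p = 0.0156). Within the CD8αβ library, TRBV12-1 and TRBV12-2 had 126 and 178 reads (exact binomial p = 0.00338), a call that was lost without the largest clonotype of each gene (120 and 137 reads, exact binomial p = 0.318), and 84 and 77 clonotypes (exact binomial p = 0.636). Within the CD8αα library they had 74 and 97 reads (exact binomial p = 0.0922), or 45 and 80 without those clonotypes (exact binomial p = 0.00223), and 16 and 36 clonotypes (exact binomial p = 0.00779), of which 13 and 22 had at least 2 reads (exact binomial p = 0.175). The exact binomial tests took an equal split between the genes as reference, and whether equal use should be assumed was not tested. Reads of 1 clonotype are not independent, so the read tests count large clones many times.

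Most TRBV12 clonotypes held few reads. In the CD8αα library the 16 TRBV12-1 clonotypes held 1 to 29 reads with a median of 2.5, and the 36 TRBV12-2 clonotypes held 1 to 17 with a median of 2. In the CD8αβ library the 84 TRBV12-1 clonotypes held 1 to 6 reads and the 77 TRBV12-2 clonotypes 1 to 41, both with a median of 1. The mean was 4.63 and 2.69 reads per clonotype in the CD8αα library and 1.5 and 2.31 in the CD8αβ library. For all other β-chain clonotypes it was 9.91 and 2.05. TRBV12 clonotypes in the CD8αα library were thus smaller on average than the rest, whose largest clonotype alone held 663 reads.

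Clonotypes with a single read were less frequent in the CD8αα library. They were 3 of 16 for TRBV12-1 (18.8%), against 59 of 84 (70.2%) in the CD8αβ library, a difference of -51.5 points (-66.5 to -25.1, Fisher's exact p = 0.000167). For TRBV12-2 they were 14 of 36 (38.9%) and 42 of 77 (54.5%), a difference of -15.7 points (-33.3 to 4, Fisher p = 0.158). For both genes together the shares were 32.7% and 62.7% (Fisher p = 0.000198), and for all other β-chain clonotypes 31.6% and 56.2% (Fisher p = 9.54e-13), so the direction was shared with the rest of the repertoire. TRBV12-1 minus TRBV12-2 in this share was -20.1 points in the CD8αα library (-40.4 to 7.92, Fisher's exact p = 0.208) and 15.7 points in the CD8αβ library (0.753 to 29.8, Fisher p = 0.0503), neither past the threshold. The CD8αα library was also the deeper, at 2995 β-chain reads against 1850. At 1850 reads, the expected number of CD8αα clonotypes was 13.9 for TRBV12-1 and 28.6 for TRBV12-2.

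**Figure D3:**
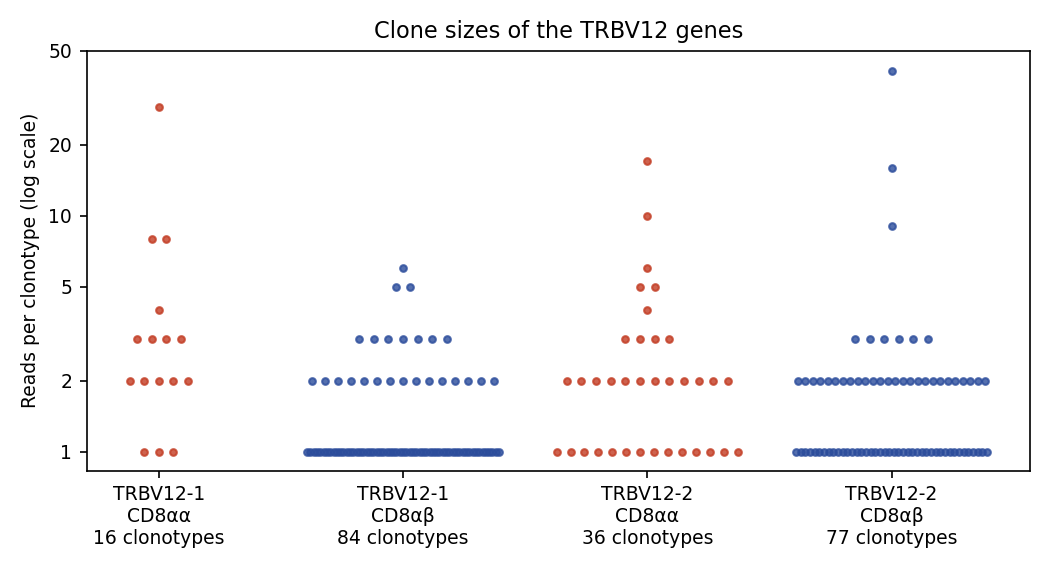
Reads per clonotype (log scale) for every TRBV12-1 and TRBV12-2 clonotype in the CD8αα library (red) and the CD8αβ library (blue), 1 point per clonotype and points of equal size spread sideways. The 84 TRBV12-1 clonotypes of the CD8αβ library all lie at 6 reads or fewer, whereas each of the other 3 columns has a clonotype of 17 reads or more.

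The largest clonotypes held unequal parts of each gene's reads. In the CD8αα library 1 TRBV12-1 clonotype held 29 of the 74 TRBV12-1 reads (39.2%, 28.9 to 50.6) and was 13th in the β-chain list, and the largest TRBV12-2 clonotype held 17 of 97 (17.5%). In the CD8αβ library the largest TRBV12-1 clonotype held 6 of 126 reads (4.76%), and the largest TRBV12-2 clonotype 41 of 178 (23%, 17.5 to 29.8), 3rd in the list. The effective number of clonotypes, the inverse of the summed squared read shares, was 5.25 for TRBV12-1 and 16 for TRBV12-2 in the CD8αα library and 59.2 and 14.3 in the CD8αβ library. TRBV12-1 thus had the lower effective number in the CD8αα library and the higher in the CD8αβ library. This number depends on how many clonotypes a gene has as well as on evenness, and TRBV12-1 had 16 CD8αα clonotypes against 36 for TRBV12-2. It also depends on the largest clonotypes named above, and it was not computed without them.

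The CDR3 sequences of the largest clonotype of each gene in each library are printed to show the joints behind these counts. Capitals mark the bases between the V and J alignments, which hold the D segment and untemplated bases.
TRBV12-1, CD8αα, TRBJ1-6, 29 reads: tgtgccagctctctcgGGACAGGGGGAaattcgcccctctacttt
TRBV12-2, CD8αα, TRBJ2-2, 17 reads: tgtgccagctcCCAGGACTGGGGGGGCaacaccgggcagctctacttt
TRBV12-1, CD8αβ, TRBJ1-3, 6 reads: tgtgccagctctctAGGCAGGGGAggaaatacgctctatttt
TRBV12-2, CD8αβ, TRBJ2-1, 41 reads: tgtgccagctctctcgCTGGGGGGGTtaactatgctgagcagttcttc
The joints encode loops of 15, 16, 14 and 16 residues. Behind these came clonotypes of at most 10 reads, except for TRBV12-2 in the CD8αβ library, where the next held 16 reads and the one after it 9.
TRBV12-2, CD8αβ, TRBJ2-2, 16 reads: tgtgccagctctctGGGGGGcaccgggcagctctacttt
TRBV12-2, CD8αβ, TRBJ2-4, 9 reads: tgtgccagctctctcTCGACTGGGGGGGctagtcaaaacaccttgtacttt
The next largest clonotypes of TRBV12-1 held 8 reads each in the CD8αα library and 5 each in the CD8αβ library. Those of TRBV12-2 in the CD8αα library held 10 and 6. The 3 largest clonotypes together held 60.8% of the TRBV12-1 reads and 34.0% of the TRBV12-2 reads in the CD8αα library, and 12.7% and 37.1% in the CD8αβ library.

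One TRBV12 clonotype was listed in both libraries with the same nucleotides, out of 3 such β-chain clonotypes in all. It was the TRBV12-1-TRBJ1-6 joint of 29 CD8αα reads printed above, which had 2 reads in the CD8αβ library. It made up 1.92% of the CD8αα TRBV12 clonotypes with 17% of their reads, and 0.621% of the CD8αβ TRBV12 clonotypes with 0.658% of their reads. Over all β-chain clonotypes, the 3 shared ones were 0.890% of the 337 in the CD8αα library and 0.328% of the 915 in the CD8αβ library. With 1 shared TRBV12 clonotype, no difference from these shares can be read.

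The 2 genes also reached the same CDR3 protein sequence by different joints. In 3 cases both were in the CD8αβ library and in 1 case across libraries, and these pairs are printed because they show how close TRBV12-1 and TRBV12-2 rearrangements can be.
TRBV12-1, CD8αβ, TRBJ2-7, 3 reads: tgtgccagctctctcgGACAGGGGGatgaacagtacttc
TRBV12-2, CD8αβ, TRBJ2-7, 1 read: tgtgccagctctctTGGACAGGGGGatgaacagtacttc
TRBV12-1, CD8αβ, TRBJ1-4, 2 reads: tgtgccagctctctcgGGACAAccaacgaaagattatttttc
TRBV12-2, CD8αβ, TRBJ1-4, 2 reads: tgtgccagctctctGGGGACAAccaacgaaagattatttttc
TRBV12-1, CD8αβ, TRBJ2-7, 1 read: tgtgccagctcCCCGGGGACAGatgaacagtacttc
TRBV12-2, CD8αβ, TRBJ2-7, 1 read: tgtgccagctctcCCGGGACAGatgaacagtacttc
TRBV12-1, CD8αα, TRBJ2-1, 2 reads: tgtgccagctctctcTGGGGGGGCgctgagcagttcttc
TRBV12-2, CD8αβ, TRBJ2-1, 1 read: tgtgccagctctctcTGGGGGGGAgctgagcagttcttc
The members of these pairs differed at 1, 1, 2 and 1 nucleotides. The TRBV12-1 clonotype with TRBJ1-4 was one of the tied ones, so its gene was not resolved. A further 2 translations were shared across libraries with other V genes. A CD8αβ TRBV12-2-TRBJ1-1 clonotype of 1 read matched a TRBV3 clonotype of 23 CD8αα reads and a TRBV14 clonotype of 2 CD8αβ reads, and a CD8αα TRBV12-2-TRBJ1-1 clonotype of 1 read matched a TRBV16 clonotype of 1 CD8αβ read.

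J partners were broadly spread. The 12 TRBJ genes lie in the TRBJ1 and TRBJ2 clusters, each behind its own D segment. In the CD8αβ library both TRBV12 genes used all 12, and in the CD8αα library TRBV12-1 used 8 and TRBV12-2 used 10, with fewer clonotypes to draw on. TRBJ2-7 was the most frequent partner of TRBV12-2 in both libraries, with 9 of 36 (25.0%) and 16 of 77 (20.8%) clonotypes, and of TRBV12-1 in the CD8αβ library, with 15 of 84 (17.9%). For TRBV12-1 in the CD8αα library TRBJ2-1 led with 5 of 16 (31.3%), followed by TRBJ2-7 with 4. The TRBJ2 cluster held 63.5% (49.9 to 75.2) of CD8αα and 63.4% (55.7 to 70.4) of CD8αβ TRBV12 clonotypes, a difference of 0.108 points (-15.2 to 14.1, Fisher p = 1). The corresponding shares among all other β-chain clonotypes were 68.1% and 69.5%. Within neither library did TRBV12-1 and TRBV12-2 differ past the threshold in this share (Fisher p = 0.758 and 0.515), although the intervals of these differences span -20.5 to 31.2 and -19.9 to 9.27 points.

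**Figure D4:**
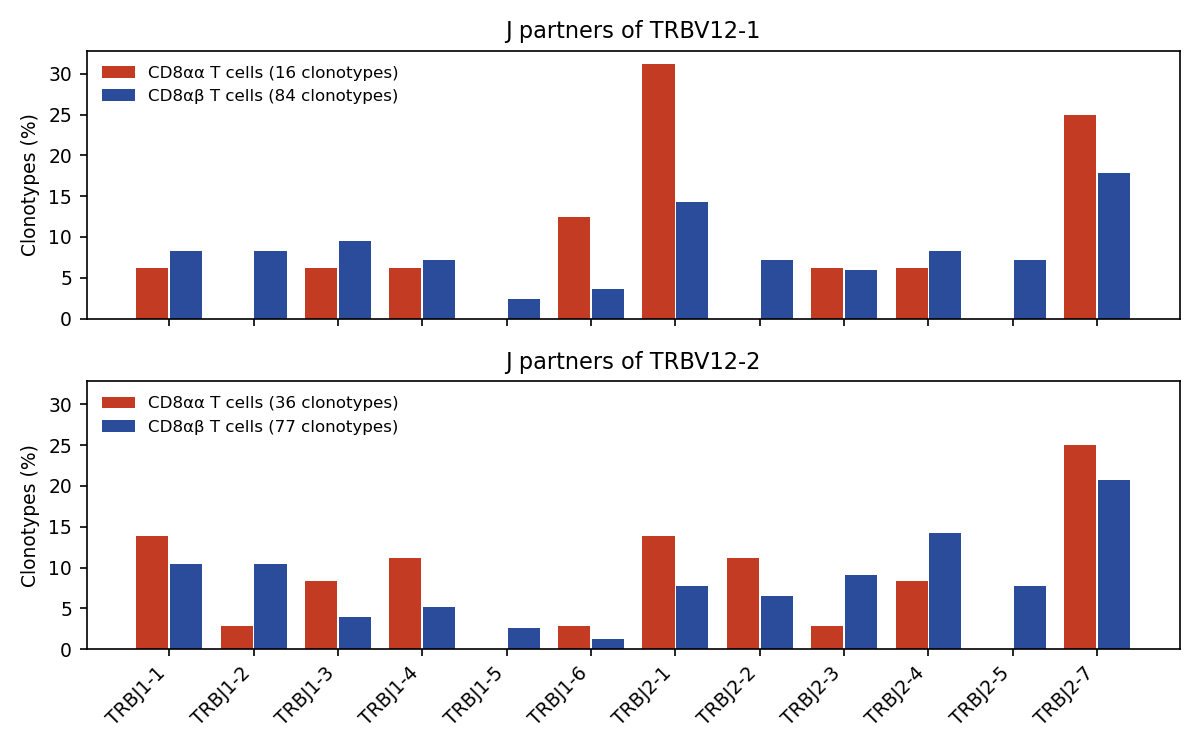
Share (%) of TRBV12-1 clonotypes (top) and TRBV12-2 clonotypes (bottom) joined to each of the 12 TRBJ genes, with red bars for the CD8αα library and blue bars for the CD8αβ library. In the CD8αβ library both genes have bars at all 12 genes, and the tallest bar in the panels, TRBV12-1 with TRBJ2-1 in the CD8αα library, stands for 5 of 16 clonotypes.

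Single clonotypes made up much of the reads of some V-J pairs. Of the 12 TRBV12-1-TRBJ pairs, 8 were called lower and 1 higher in the CD8αα library, and of the 12 TRBV12-2 pairs 6 were called lower and 0 higher. Over all 220 V-J pairs tested, 25.9% were called lower and 7.73% higher. By clonotypes none of the 24 TRBV12 pairs was called in either direction (Fisher's exact test, 0 at an unadjusted p under 0.05), and 0% of all pairs were called lower. The pair called higher was TRBV12-1-TRBJ1-6, with 37 CD8αα reads (1.24%) and 8 CD8αβ reads (0.432%, adjusted Fisher p = 0.0187). It held 2 and 3 clonotypes, and 29 of the 37 reads belonged to the clonotype found in both libraries.

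Among TRBV12-2 pairs, TRBV12-2-TRBJ2-1 had 16 reads in 5 CD8αα clonotypes and 47 reads in 6 CD8αβ clonotypes (adjusted Fisher p = 7.84e-08), and 41 of the 47 came from 1 clonotype. TRBV12-2-TRBJ2-4 had 6 and 25 reads in 3 and 11 clonotypes (adjusted Fisher p = 1.88e-05). TRBV12-2-TRBJ2-7 had 15 and 24 reads in 9 and 16 clonotypes (adjusted Fisher p = 0.0164). TRBV12-2-TRBJ2-2 was not called, with 27 and 21 reads in 4 and 5 clonotypes and a difference of -0.234 points (-0.891 to 0.331, adjusted Fisher p = 0.534). For TRBV12-1, TRBV12-1-TRBJ2-7 had 10 and 20 reads in 4 and 15 clonotypes (adjusted Fisher p = 0.00858).

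Short CDR3 loops were rarer among TRBV12 clonotypes of the CD8αα library. The mean length was 14.2 ± 0.911 residues (SD over 16 clonotypes) for TRBV12-1 and 14.1 ± 1.22 (36 clonotypes) for TRBV12-2 in the CD8αα library, and 14.0 ± 1.28 (84) and 13.4 ± 1.76 (77) in the CD8αβ library. Loops of 12 residues or fewer were 3 of 52 (5.77%, 1.98 to 15.6) and 31 of 161 (19.3%, 13.9 to 26.0) for both genes, a difference of -13.5 points (-21.3 to -2.26, Fisher p = 0.0275). TRBV12-2 alone gave 2 of 36 and 18 of 77 (Fisher's exact p = 0.0319), and TRBV12-1 alone 1 of 16 and 13 of 84 (Fisher's exact p = 0.458). All other β-chain clonotypes moved the same way, with 13.7% and 19.4% (Fisher p = 0.0364). Within the CD8αα library TRBV12 and the rest differed by -7.92 points (-13.8 to 2.56, Fisher p = 0.168). Among clonotypes with at least 2 reads the difference between libraries was -10.5 points for TRBV12 (Fisher p = 0.148) and -15.5 points for TRBV12-2 (Fisher p = 0.134), neither past the threshold. None of these p-values was adjusted for the number of comparisons.

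At the other end, loops of 15 residues or more were 36.5% of CD8αα and 30.4% of CD8αβ TRBV12 clonotypes, a difference of 6.10 points (-7.82 to 21.2, Fisher p = 0.494). Within the CD8αβ library 36.9% of TRBV12-1 and 23.4% of TRBV12-2 clonotypes were this long, a difference of 13.5 points (-0.712 to 26.9, Fisher p = 0.0860). The shortest loops were 8 residues long, in 3 CD8αβ TRBV12-2 clonotypes.

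**Figure D5:**
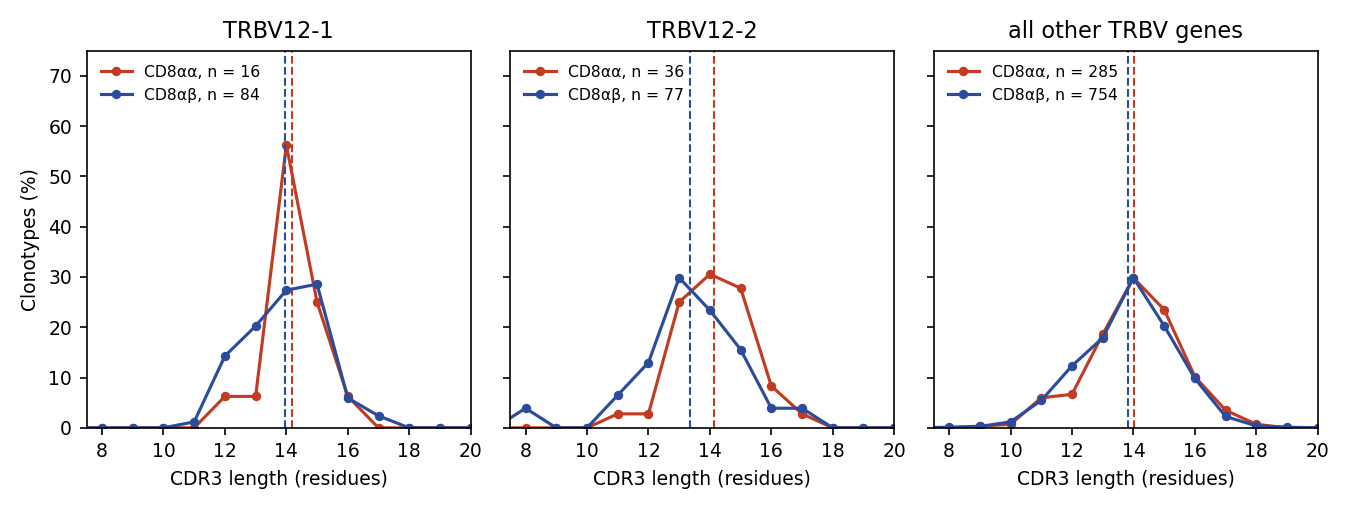
Share (%) of clonotypes at each CDR3 length in residues for TRBV12-1, TRBV12-2 and all other TRBV genes, with the CD8αα library in red, the CD8αβ library in blue and dashed lines at the mean lengths. For TRBV12-2 the CD8αβ curve peaks at 13 residues and the CD8αα curve at 14, with means of 13.4 and 14.1, and for TRBV12-1 9 of the 16 CD8αα clonotypes are 14 residues long.

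The V end of the joint starts from the same germline bases in both genes. Of the 15 germline V bases in the CDR3, a mean of 13.6 ± 1.63 (SD over clonotypes) remained for TRBV12-1 and 13.4 ± 1.56 for TRBV12-2 in the CD8αα library, and 13.3 ± 1.66 and 13.2 ± 1.64 in the CD8αβ library. These counts follow the V alignment, which allows mismatches. By it the V end was untrimmed in 36.5% of CD8αα and 33.5% of CD8αβ TRBV12 clonotypes. All 15 germline bases were matched exactly in 5 of 16 TRBV12-1 and 13 of 36 TRBV12-2 clonotypes of the CD8αα library. In the CD8αβ library this held for 27 of 84 and 23 of 77. The V end was untrimmed in 17.5% and 17.9% of all other β-chain clonotypes, whose germline ends differ. The alignment listed palindromic bases after an untrimmed V end in 17.3% and 27.3% of TRBV12 clonotypes and in 8.42% and 7.96% of the rest. Whether such a base came from the V end or from the D segment was not tested. By gene they were in 25% of TRBV12-1 and 13.9% of TRBV12-2 clonotypes in the CD8αα library, and in 32.1% and 22.1% in the CD8αβ library. The CDR3 opened with the residues CASSL, which the germline end encodes, in 53.8% and 48.4% of TRBV12 clonotypes and in 17.9% and 17.2% of the rest. For TRBV12-1 these were 11 of 16 (68.8%) and 43 of 84 (51.2%), and for TRBV12-2 17 of 36 (47.2%) and 35 of 77 (45.5%). For CASSP, which differs from it at the fifth residue, the shares were 25.0% and 17.4% against 7.02% and 10.5%.

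Untemplated bases in the joint and the residue content of the loop were also described. Untemplated bases averaged 1.94 ± 2.54 (SD over clonotypes) for TRBV12-1 and 3 ± 2.79 for TRBV12-2 among CD8αα clonotypes, and 3.16 ± 2.10 and 2.39 ± 2.13 among CD8αβ clonotypes. Where no D segment was listed, all bases between V and J were counted as untemplated, so some may be D bases. This held for 2 of 16 and 9 of 36 CD8αα clonotypes, and for 21 of 84 and 22 of 77 CD8αβ clonotypes. A glycine pair, often contributed by the D segments, occurred in 23.1% and 25.5% of TRBV12 loops and in 22.5% and 23.9% of the rest. The mean number of acidic residues was 1.12 ± 0.676 and 1.06 ± 0.760 for TRBV12, against 1.29 ± 0.730 and 1.30 ± 0.774 for the rest, and of hydrophobic residues 4.48 ± 1.34 and 4.07 ± 1.28 against 4.21 ± 1.26 and 3.94 ± 1.22. Residues and glycine pairs were counted over the whole CDR3, germline V and J ends included, so they do not isolate the middle of the loop. These are descriptions over clonotypes of 1 library each and were not tested.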

How the data were processed

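Bulk RNA-seq of 1 library of CD8αα T cells and 1 of CD8αβ T cells was used, grouped by the labels. Per the paper's methods, the authors assembled clonotypes from the reads with MiXCR. The deposited lists give for each clonotype a read count, a fraction of all listed reads, which equals count over total, and a quality score for the CDR3 bases. Read counts were used as deposited. β-chain clonotypes were those whose first J hit is a TRBJ gene, and V, D and J were the first hits. TRBV12 clonotypes that share a translation, the 3 largest of each gene per library, V-J pairs with at least 20 reads and the 3 genes nearest in read-share ratio were named, and the members and lists were chosen with earlier results of these data known. Because each group has 1 library, shares were compared with Fisher's exact test (scipy 1.17.1, threshold 0.05), Benjamini-Hochberg adjustment ran over all V genes or V-J pairs, and difference intervals were Newcombe's from Wilson bounds. β-chain depth was 2995 and 1850 reads, so an absence allows a share of up to 0.100% and 0.162% (3 reads). Germline sequence came from the GENCODE annotation of GRCm38.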

Additional observations from a re-analysis of the deposited data

Results flagged for a closer look

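The balance between TRBV12-1 and TRBV12-2 by clonotypes differed between the libraries by a test of the difference itself, with TRBV12-2 higher by 21.4 percentage points of TRBV12 clonotypes in the CD8αα library (unadjusted Fisher p = 0.0102), whereas the balance by reads differed by -1.83 points (Fisher p = 0.700). With at least 2 reads required, the clonotype difference was 4.52 points (Fisher p = 0.828), so it rested on clonotypes with a single read. TRBV12 against the neighbouring TRBV13 genes, the only other family it was set against, also differed by reads, at -21.0 points in the CD8αα library (Fisher p = 4.79e-15). By clonotypes that difference was -3.74 points (Fisher p = 0.524). Both tests compare 1 library with 1 library.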

How the results depend on the processing

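Counting only clonotypes with at least 2 reads moved the most results (Fisher's exact test throughout). The TRBV12-2 share of TRBV12 clonotypes differed by 4.52 points (exact p = 0.828) and of TRBV12 reads by -13.1 points (exact p = 0.0156), loops of 12 residues or fewer among TRBV12 by -10.5 points (exact p = 0.148), TRBV12 against TRBV13 clonotypes by 0.211 points, and the TRBJ2 share of TRBV12-2 by 1.95 points. It left 0 TRBV genes that differ by clonotypes, against 1. The TRBV12-2 share of TRBV12 reads was 10.7 points without the largest clonotype of each gene and 9.37 without clonotypes in both libraries, and the TRBJ2 share of TRBV12 was -0.891 without tied clonotypes. Where a cause is not in the construction of the alternative it was not tested. The lower TRBV12 read share ranged from -11.6 to -9.95 points over 9 alternatives, and those of TRBV12-1 and TRBV12-2 from -5.21 to -2.60 and -7.39 to -4.89, all past the threshold. Splitting or moving ties, merging sequencing errors and grouping by translation only regrouped the same reads. The family read share stayed at -10.7 points under them, and they could not test it. Giving the tied clonotypes to TRBV12-2, the mean of 1% as a limit for the gene order, and the within-library counts without the largest clonotypes were chosen after seeing the data. Merging sequencing errors removed 0 TRBV12 clonotypes. The merge joined clonotypes with the same V and J genes that differ at 1 base, if the larger had at least 10 times the reads. Most TRBV12 clonotypes were too small for this rule to act, and a pair of 9 and 1 reads fell short of it. Smaller errors could therefore remain. At 1 to 41 reads a clonotype and with 1 library per cell type, clonotype shares of the TRBV12 genes were known to within several points only, as their intervals show. No paired analysis was possible because each cell type has 1 library.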

Other observations

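Among TRBV12 clonotypes joined to TRBJ1 genes and with a D gene listed, TRBD2, which lies downstream of the TRBJ1 cluster, was listed first in 0 of 13 in the CD8αα library and in 3 of 37 in the CD8αβ library, all 3 of them TRBV12-1, against 5 of 67 and 8 of 150 such clonotypes of the other V genes. TRBC2 was listed first for 13 of 15 and 34 of 36 TRBV12 clonotypes with TRBJ1 genes that had a constant gene listed, although the TRBJ1 cluster lies next to TRBC1, and for 73 of 80 and 171 of 180 such clonotypes of the other V genes. The near-identical constant genes were not separated further here. In each library a pair of TRBV12-2 clonotypes differed by a single base with one member much larger, 17 and 3 reads with TRBJ2-2 in the CD8αα library and 9 and 1 reads with TRBJ2-4 in the CD8αβ library. The lowest base quality of the smaller member was 37 and 25.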
